A study of Mus musculus with 12 samples.

Results

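The mRNA levels of 10 genes of the Bcl2 family were measured in hematopoietic stem cells (HSCs) sorted from the bone marrow of mice with and without an intact Pon2 gene. The genes were a list set by name, with earlier results of these data known. It held the antiapoptotic members Bcl2, Bcl2l1 (Bcl-xL) and Mcl1 and the pore-forming effectors Bax and Bak1. Its BH3-only members were Bid, Bad, Bcl2l11 (Bim), Bbc3 (Puma) and Pmaip1 (Noxa). All 10 were found among the 49585 genes of the count files. Of them, 8 passed the filter on low counts and were tested together with 11848 genes in all, while Bbc3 and Pmaip1 failed it. Total RNA was sequenced from 6 wild-type (WT) C57BL/6J mice and 6 Pon2-/- mice of the same strain, all 10 to 14 weeks old. The Pon2-/- mice carry a gene trap with the β-geo cassette and flanking loxP sites in an intron of Pon2, which encodes the antioxidative enzyme paraoxonase 2. Cells were sorted as Lin-, Sca1+, ckit+, CD135- and CD150+, a gate labelled LT-HSC that, by the study's methods, also lets MPP2 cells through. For each mouse, 8 wells of 10 cells were processed by Smart-seq2, and 1 count file per mouse was used here.

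Bcl2-family proteins control the mitochondrial route to apoptosis. Bax and Bak1 permeabilise the outer mitochondrial membrane and release cytochrome c, and Bcl2, Bcl2l1 and Mcl1 hold them in check. BH3-only proteins sense stress and either bind the antiapoptotic proteins or engage the effectors directly. Mcl1 is known to be required for the survival of HSCs. Many of these proteins are controlled by cleavage, phosphorylation or degradation, which mRNA counts do not show. The study measured apoptosis of LT-HSCs with annexin V, which took the place of CD135 in that staining, so the gate was not the same as here. The comparison made here asks whether the mRNA levels of the family differed between the genotypes.

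Total counts ran from 12967791 to 24228280 per sample, so that 3 counts, the upper limit that a count of 0 allows, corresponded to 0.121 to 0.235 counts per 1000000 (CPM); such limits cover counting error only. Pon2 itself, the targeted gene, had 56.4 to 202.0 CPM in WT samples and 1.16 to 33.1 CPM in Pon2-/- samples, so that the genotypes did not overlap. Its log2 fold change was -2.13 ± 0.57 (SE), with an adjusted p of 0.586 by edgeR and 0.0104 by DESeq2. Across the alternative fits the adjusted p of Pon2 ran from 0.00344 to 1, and it was 0.0295 by edgeR without Pon2-/- replicate 5. Of the markers of the sorted HSCs, 7 (Ly6a, Kit, Slamf1, Procr, Mecom, Hlf and Fgd5) were counted in every sample and summed to 1308 to 1780 CPM in WT and 1367 to 1716 CPM in Pon2-/-. Flt3, which encodes the gated-out CD135, was counted in all 12 samples at 4.59 to 65.0 CPM. Markers of other lineages were also present: the 6 B-lineage genes summed to 25.5 to 318.6 CPM in WT and 58.8 to 478.4 CPM in Pon2-/-, and the 6 T-lineage genes to 0.042 to 39.7 CPM and 12.6 to 57.7 CPM, although Cd3e and Cd5 were at 0 in all samples. The erythroid list had medians of 40.8 CPM in WT and 17.4 CPM in Pon2-/- and ran from 6.11 to 61.8 CPM over all samples, and the megakaryocyte list summed to 173.5 to 238 CPM in WT and 107.5 to 266.5 CPM in Pon2-/-. The 8 granulocyte and monocyte markers (Elane, Mpo, Ly6g, S100a8, S100a9, Itgam, Lyz2 and Csf1r) summed to 565 to 9436 CPM in WT and 597 to 14500 CPM in Pon2-/-. Of these 8, 6 passed the filter and were tested. The B-lineage, T-lineage, erythroid and megakaryocyte lists had 3 of 6, 1 of 6, 5 of 6 and 4 of 6 genes tested. Among the tested marker genes edgeR called 0, against 0.203% of all tested genes. Each library pooled cells, so fewer cells of a type and less RNA per cell could not be told apart.

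None of the 8 tested members was called different between the genotypes. The call required an adjusted p (Benjamini-Hochberg over all tested genes, edgeR quasi-likelihood test) below 0.05 and a change of more than 2-fold, and 0 members met it, against 24 of the 11848 tested genes (0.203%). The same edgeR test did not call Pon2, the targeted gene, either (adjusted p = 0.586), so 0 calls do not show that levels were equal. At an unadjusted edgeR p below 0.05 there were also 0 members, against 3.13% of all tested genes. By the two-sided exact permutation test of mean log2 CPM over all assignments of 6 of the 12 samples, 0 members had p below 0.05, against 5.87% of tested genes, and the smallest p this design allows is 0.00216. The genotypes did not overlap for 0 members, against 0.633% of tested genes. DESeq2 called 0 members as well, against 304 of 25444 genes, and its lowest unadjusted p among the members was 0.0647, for Bcl2. The median log2 fold change of the 8 tested members was -0.27, with 3 positive and 5 negative values, against a median of -0.01 over all tested genes.

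**Figure D1:**
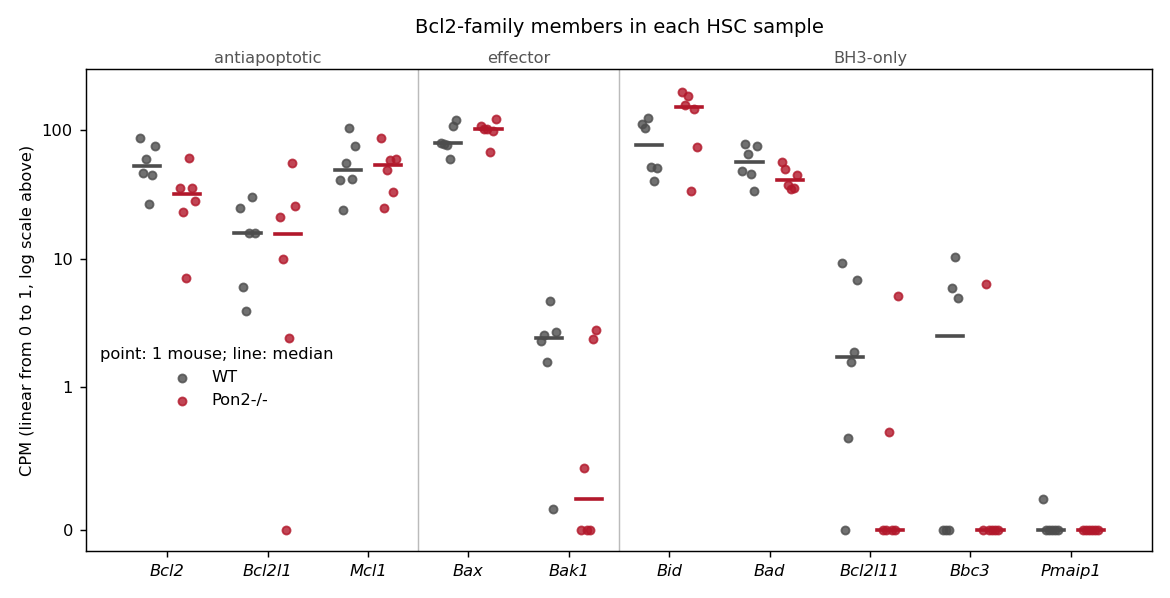
Level of the 10 members in each of the 12 samples, in CPM on an axis that is linear from 0 to 1 and logarithmic above; each point is 1 mouse and each short line the median of 6. Bcl2 spans 26.6 to 87.8 CPM in WT and 7.05 to 61.5 CPM in Pon2-/-, Bax stays between 59.4 and 123.2 CPM throughout, and the genotypes overlap for every member with counts in both genotypes.

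Among the antiapoptotic members, Bcl2, the founding member of the family (chr1:106538178-106714274, minus strand, GRCm38), had the largest mean difference in CPM. Its lowest, median and highest levels were 26.6, 53.1 and 87.8 CPM in WT and 7.05, 31.9 and 61.5 CPM in Pon2-/-. The ranges overlapped, with 2 Pon2-/- samples below the lowest WT sample and 2 WT samples above the highest Pon2-/- sample. The means were 56.9 ± 22.2 CPM and 31.9 ± 18.0 CPM (SD, n = 6 each). By edgeR, Pon2-/- differed from WT by -0.84 ± 0.47 (SE) on the log2 scale, with a 95% confidence interval of -1.84 to 0.16. The adjusted p by edgeR was 1.00, and the exact permutation p was 0.0649 (0.868 adjusted over all tested genes). This exact permutation p was 0.0238 when either WT replicate 4 or Pon2-/- replicate 4 was left out, which were the lowest WT and the highest Pon2-/- sample, and rose to at most 0.139, without WT replicate 1. The lowest sample, Pon2-/- replicate 3, still held 124 counts of Bcl2. The coefficient of variation was 39.0% in WT and 56.4% in Pon2-/-, whereas counting error at the median count would give 3.07% and 4.20%.

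Mcl1, whose short-lived protein protects HSCs from death, was at 24.1, 48.9 and 105.4 CPM (lowest, median and highest) in WT and 25.1, 54.0 and 87.3 CPM in Pon2-/- (chr3:95658788-95663176, plus strand). The genotypes covered nearly the same range. For Mcl1 the log2 fold change was -0.13 with a 95% confidence interval of -0.99 to 0.72, which spans 0.503-fold to 1.65-fold (edgeR, adjusted p = 1.00). Its sign was not stable, since it turned positive without WT replicate 4 (0.13) and without Pon2-/- replicate 2 (0.01).

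Bcl2l1, which encodes Bcl-xL and is known for its role in late erythroid cells, was the most variable of the 3 (chr2:152780668-152831728, minus strand). WT samples held 3.91, 15.9 and 30.5 CPM and Pon2-/- samples 0, 15.5 and 56.3 CPM (lowest, median and highest). Both extremes were thus Pon2-/- samples: replicate 3 had 0 counts, which allows up to 0.171 CPM, and replicate 5 had 1216 counts. The coefficient of variation was 63.9% in WT and 107.8% in Pon2-/-, whereas counting error at the median count would give 6.58% and 5.85%. Its log2 fold change of 0.25 had a 95% confidence interval from -2.13 to 2.63, and without Pon2-/- replicate 5 it was -0.46. The mean log2 CPM differed by -0.97, so that the 2 measures disagreed in sign.

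Of the effectors, Bax was the steadiest member (chr7:45461697-45466898, minus strand). It was at 59.4, 79.6 and 121.2 CPM in WT and at 68.0, 103.0 and 123.2 CPM in Pon2-/- (lowest, median and highest). Of the Pon2-/- samples, 5 lay between 99.1 and 123.2 CPM, but 2 WT samples at 109.0 and 121.2 CPM reached the same levels. The log2 fold change was 0.20 ± 0.22 (SE), and its 95% confidence interval spans 0.834-fold to 1.59-fold, so that a 2-fold change in either direction lies outside it (edgeR, adjusted p = 1.00). The exact permutation p was 0.264.

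Bak1, the second effector, was far less abundant (chr17:27019810-27029009, minus strand). All 6 WT samples held counts, from 0.145 CPM (2 counts) through a median of 2.41 to 4.70 CPM, but 3 Pon2-/- samples had 0 counts and the other 3 held 0.431, 2.36 and 2.76 CPM. The samples at 0 allow up to 0.171 to 0.208 CPM, and the genotypes overlapped through WT replicate 5 and the 3 counted Pon2-/- samples. The log2 fold change was -1.32 with a 95% confidence interval of -4.13 to 1.49 (edgeR, adjusted p = 1.00), and the exact permutation p was 0.0866 (0.894 adjusted over all tested genes). Unadjusted, this exact permutation p was 0.0411 without WT replicate 5, 0.0455 without Pon2-/- replicate 5 and 0.0368 without Pon2-/- replicate 6, and other samples left out raised it to at most 0.156. The log2 fold change was -2.03 without Pon2-/- replicate 6, -1.84 with a covariate for Y-linked genes, -2.80 with limma voom and -3.72 with the replicate block.

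**Figure D2:**
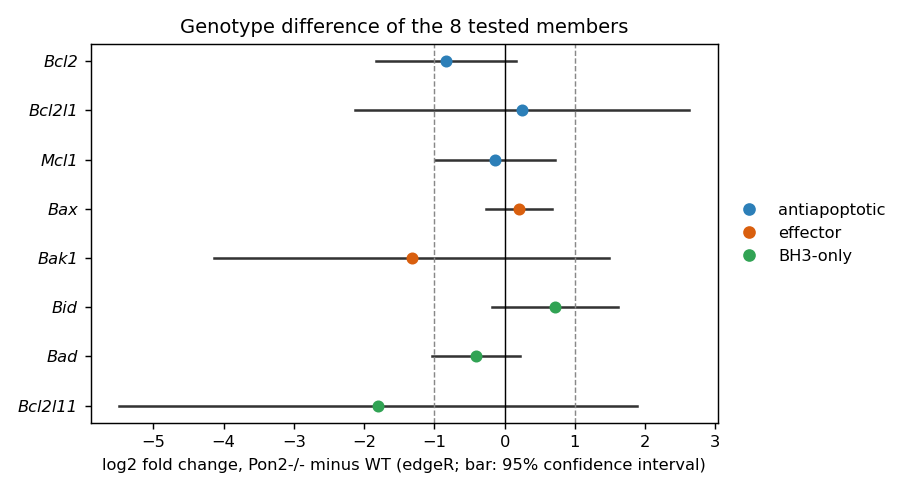
Log2 fold change of Pon2-/- over WT for the 8 tested members, as fitted by edgeR; points are estimates coloured by role, bars are 95% confidence intervals, and dashed lines mark a 2-fold change. All 8 intervals include 0; that of Bax is the narrowest (-0.26 to 0.67) and that of Bcl2l11 the widest (-5.49 to 1.89).

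The BH3-only members fell into 2 that were well counted and 3 that were sparse. Bid links death receptors to mitochondria after cleavage by caspase 8 (chr6:120891930-120916853, minus strand). Its levels were 40.4, 77.7 and 125.2 CPM in WT and 33.6, 151.8 and 199.2 CPM in Pon2-/- (lowest, median and highest). In Pon2-/-, 4 samples at 146.9 to 199.2 CPM exceeded every WT sample, but replicate 4, at 33.6 CPM, was the lowest of all 12. The means were 80.5 ± 36.9 and 132.6 ± 65.0 CPM (SD, n = 6 each). By edgeR, Bid differed by 0.72 ± 0.42 (SE) on the log2 scale, with a 95% confidence interval of -0.18 to 1.61 (adjusted p = 1.00) and an exact permutation p of 0.238. Over the samples left out in turn, the exact permutation p ran from 0.0411 (without Pon2-/- replicate 4) to 0.396 (without WT replicate 5). The log2 fold change of Bid ran from 0.56 to 0.97 over the alternative fits, and was highest with a covariate for Y-linked genes. The sex of the mice is not reported here.

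In these 12 samples a higher level of Bid went with a deeper library, but the relation did not pass adjustment over all tested genes. The 5 shallowest libraries (3 WT and 2 Pon2-/-, at most 16828000 counts) held 33.6 to 74.3 CPM of Bid, and the 7 deeper ones (at least 17555037 counts) held 103.8 to 199.2 CPM. This division of the samples was made after the values had been seen. Among the deeper libraries the 3 WT samples held 103.8 to 125.2 CPM and the 4 Pon2-/- samples 146.9 to 199.2 CPM, while among the shallow ones the 2 genotypes were mixed. Because the cut was placed by the values of Bid, this order is only a description, not tested or set against other genes. Over the 12 samples, Bid (log2 CPM) and log2 total counts gave a Pearson r of 0.74 (permutation p = 0.00814) and a Spearman rho of 0.64 (permutation p = 0.0281). Pearson's r was 0.73 without the 2 samples farthest from the median depth, 0.93 within WT and 0.71 within Pon2-/-. Adjusted over all tested genes the permutation p for r was 0.436, and 1.44% of tested genes had an r at least as large in size. Such relations were computed for the 8 tested members, and the other 7 gave r from -0.57 (Mcl1, permutation p = 0.0545, adjusted 0.630) to 0.28 (Bad, permutation p = 0.375). For Mcl1, Spearman's rho was -0.59 (permutation p = 0.0454), and r was -0.55 without the 2 samples farthest from the median depth, -0.45 within WT and -0.81 within Pon2-/-. With log2 total counts added to the edgeR model, the log2 fold change of Bid was 0.67 (adjusted p = 1.00). The part of depth in the level of Bid was not tested further.

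**Figure D3:**
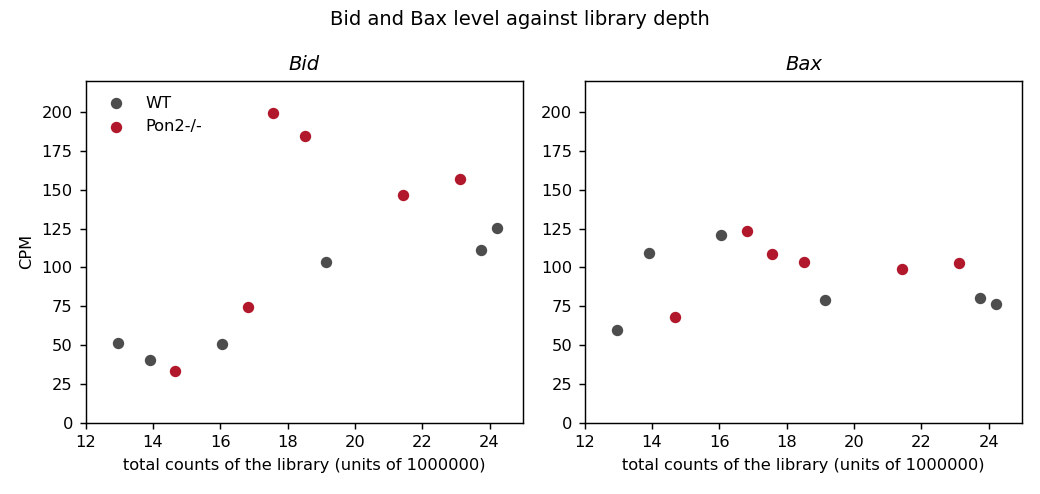
Level of Bid (left) and Bax (right) in CPM against the total counts of the library, in units of 1000000; each point is 1 mouse. All 5 libraries with up to 16828000 counts hold less than 75 CPM of Bid and all deeper ones more than 100 CPM, a cut placed by the values of Bid. Over the 12 samples, Pearson's r of log2 CPM with log2 total counts was 0.74 for Bid and 0.08 for Bax.

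Bad, a BH3-only protein held inactive by survival-factor signalling through phosphorylation, was at 34.0, 56.7 and 77.9 CPM in WT and 34.9, 41.4 and 57.1 CPM in Pon2-/- (chr19:6941861-6951899, plus strand). The lowest samples of the genotypes were alike, and 3 WT samples at 65.5 to 77.9 CPM lay above every Pon2-/- sample. For Bad the log2 fold change was -0.41 with a 95% confidence interval of -1.04 to 0.22 (edgeR, adjusted p = 1.00), and the exact permutation p was 0.136. With single samples left out it ran from 0.0303 (without WT replicate 5) to 0.249.

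Bcl2l11 encodes Bim, which binds all antiapoptotic members and is induced by FoxO factors (chr2:128126038-128162547, plus strand). It had counts in 5 WT samples, with 392 in all, and in 2 Pon2-/- samples, with 97 in all. The levels were 0, 1.73 and 9.29 CPM (lowest, median and highest) in WT and 0, 0 and 5.11 CPM in Pon2-/-. Most of the counts came from WT replicates 1 and 6 and Pon2-/- replicate 6, with 219, 111 and 85 counts. Its log2 fold change of -1.80 had a 95% confidence interval of -5.49 to 1.89, and the exact permutation p was 0.102. That p was 0.026 without WT replicate 2 and 0.0325 without Pon2-/- replicate 6, and at most 0.188 with another sample left out. The log2 fold change was -4.55 without Pon2-/- replicate 6 and -1.17 without WT replicate 1. It was -3.04 with a covariate for Y-linked genes, -3.50 with limma voom and -4.31 with the replicate block.

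Bbc3 and Pmaip1, both textbook targets of p53, were counted in few samples. Bbc3 (chr7:16308393-16318205, plus strand) had 76, 142 and 81 counts in WT replicates 4, 5 and 6 and 148 counts in Pon2-/- replicate 2, and 0 in the other 8 samples. Its exact permutation p was 0.424. Pmaip1 on chromosome 18 had 5 counts in WT replicate 1 (0.212 CPM) and 0 in the 11 other samples. Bbc3 was thus at 4.97 to 10.3 CPM in 4 samples and at 0 in the rest, among them the deepest libraries, WT replicates 1 and 3.

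To compare levels between genes, CPM was divided by the length of each gene's exons in kilobases. On this scale the median over 12 samples fell from Bax (64.0) through Bid (30.3), Bad (18.4), Mcl1 (15.3), Bcl2 (4.43), Bcl2l1 (3.47) and Bak1 (0.803) to Bcl2l11 (0.083), with Bbc3 and Pmaip1 at 0. Bax lay above Bid in 12 of 12 samples, Mcl1 above Bcl2 in 12 of 12, and Bcl2l1 above Bak1 in 11 of 12. Other neighbours changed places between samples: Bid exceeded Bad in 7 of 12, Bad exceeded Mcl1 in 8, Bcl2 exceeded Bcl2l1 in 7, and Bak1 exceeded Bcl2l11 in 7. On this scale Mcl1 was the leading antiapoptotic transcript, with a level 1.26 to 10.6 times that of Bcl2 in WT and 2.51 to 18.5 times in Pon2-/-. Only in Pon2-/- replicate 5, the sample with the most Bcl2l1 counts, did Mcl1 fall below Bcl2l1, at a ratio of 0.793. The order of Mcl1 and Bcl2 depends on the exon lengths used, 3418 bases for Mcl1 and 9157 for Bcl2. In CPM, not divided by length, the medians of Mcl1 and Bcl2 were 48.9 and 53.1 in WT and 54.0 and 31.9 in Pon2-/-. Bid exceeded Bad in 2 WT and 5 Pon2-/- samples.

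The shares of the 3 roles in the family overlapped between the genotypes. Antiapoptotic members made up 20.5 ± 7.25% of the summed per-kilobase level in WT and 16.7 ± 6.74% in Pon2-/- (SD, n = 6 each), a difference of -3.81 percentage points. The shares ran from 10.8 to 33.1% in WT and from 8.34 to 27.1% in Pon2-/-, so the genotypes overlapped widely. Effectors made up 43.1 ± 8.10% and 45.7 ± 5.45%, and BH3-only members 36.4 ± 9.45% and 37.6 ± 9.24%. Of single genes, Bax alone made up 33.5 to 56.3% of the family in each sample, and Bid had median shares of 18.2% in WT and 29.6% in Pon2-/-. In CPM not divided by length, the antiapoptotic share differed by -7.79 percentage points. All shares are given as a description, with no test.

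**Figure D4:**
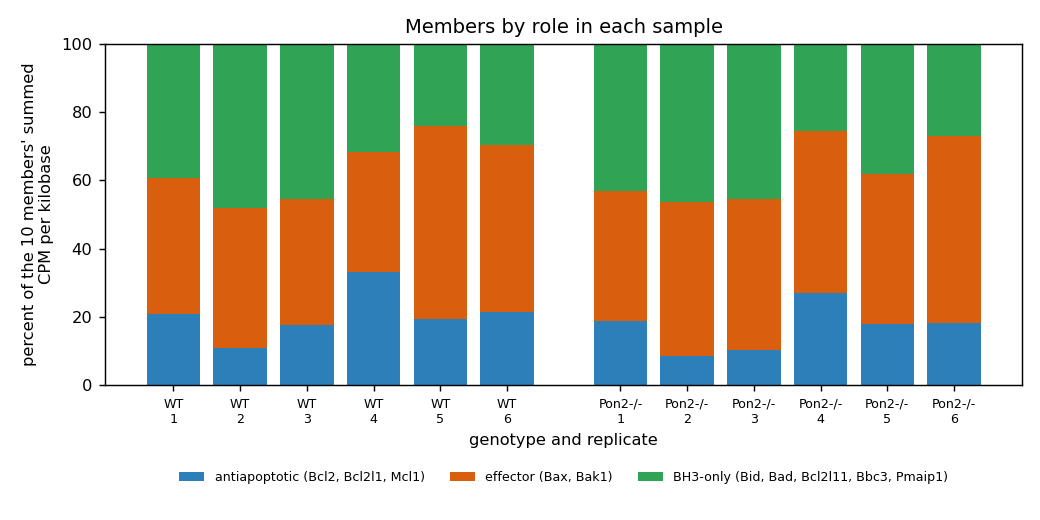
Shares of the antiapoptotic, effector and BH3-only members in the summed per-kilobase level of the 10 members, in percent, for each of the 12 samples. The antiapoptotic share ranges from 8.34% (Pon2-/- replicate 2) to 33.1% (WT replicate 4), with no separation of the genotypes.

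The well-counted members varied less between samples than the median gene, without matching on level. With 1 count file per mouse, differences between mice and technical spread could not be told apart. The biological coefficient of variation fitted by edgeR was 30.3% for Bax, 39.6% for Bad, 50.6% for Mcl1, 50.9% for Bid and 57.7% for Bcl2, against a median of 73.1% over all tested genes. It was 123.9% for Bcl2l1, 156.7% for Bak1 and 214.6% for Bcl2l11. The members did not move together across mice. Over the 28 pairs of tested members Pearson's r of log2 CPM ran from -0.43 to 0.58 with a median of 0.07 (description, 12 samples). The highest value, between Bcl2 and Bcl2l1, came with a Spearman rho of 0.02 and rested on the 2 samples farthest from the median of Bcl2, without which r was -0.43.

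Outside the family, the tested gene whose log2 CPM was most like that of each member over the 12 samples was Tmco6 for Bcl2 (r = 0.90), Ppp1ccb for Bcl2l1 (r = 0.94), Rmdn1 for Mcl1 (r = 0.87) and Gm4953 for Bax (r = 0.86). For the other tested members it was Mta2 for Bak1 (r = 0.92), Uqcrc1 for Bid (r = 0.92), Ecsit for Bad (r = 0.94) and Eno2 for Bcl2l11 (r = 0.90). Each was picked as the highest of 11848 tested genes over 12 samples, so a high r says little by itself, and it is given without a test. Without the 2 farthest samples r was 0.66 for Bcl2, 0.69 for Bax and 0.84 to 0.94 for the other tested members.

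The position of the genes bears on how they were counted. STAR counts no read that overlaps exons of more than 1 gene. The counts were taken to be unstranded, which the files do not state. In GENCODE M21, exons of Bad share 20.5% of their bases with Gpr137, those of Bak1 18.2% with Ggnbp1, those of Bid 17.7% with Bcl2l13, those of Bax 12.2% with Gm45808 and those of Bcl2 6.09% with D630008O14Rik. If the counts are unstranded and release M12, which was used for counting, has the same overlaps, reads from these stretches were not counted for either gene. The overlap with Gm45808 lies on the strand of Bax, and the 4 others are with genes on the opposite strand. The exons of the other 5 members overlap no annotated gene. Bid and Bcl2l13, itself a Bcl2-family gene, lie tail to tail on chromosome 6.

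The wider pathway showed no calls either. It was covered by 7 lists with 63 genes, of which 55 were tested and 0 were called by edgeR. Of these genes, 2 had an unadjusted edgeR p below 0.05 and 5 an exact permutation p below 0.05, against 3.13% and 5.87% of all tested genes. In all, 29 had a positive and 26 a negative log2 fold change, with a median of 0.00 against -0.01 over all tested genes. DESeq2 called 0 genes of these lists by default, against 304 of 25444 genes in all. Without its outlier filter it called 1, against 966 of 25444. That gene was the BH3-only gene Bik, whose 324 counts all came from WT replicate 2.

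Of the 15 other Bcl2-family genes, 8 were tested. Bcl2l10 and Hrk were at 0 in all 12 samples, and Bcl2a1a, Bcl2a1b and Bcl2a1d are near-identical copies (98.2 to 99.1% identity), whose counts of 57, 130 and 38 over all samples are therefore uncertain. Bcl2l2 (Bcl-w), a further antiapoptotic gene, held 0.726, 15.9 and 47.5 CPM in WT and 0, 0.057 and 16.8 CPM in Pon2-/- (lowest, median and highest). The genotypes overlapped, and the log2 fold change of -2.26 had a 95% confidence interval of -5.93 to 1.41 (edgeR, adjusted p = 1.00; exact permutation p = 0.0238, 0.746 adjusted over all tested genes). Bcl2l13, a mitophagy receptor, had a log2 fold change of -0.65 ± 0.79 (SE).

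Downstream of the effectors, 10 of 10 genes of mitochondrial release and the apoptosome were tested, with 5 positive and 5 negative log2 fold changes. Vdac2, the channel of the outer membrane that recruits Bak1 and Bax to mitochondria, was at 182.0, 220.2 and 320.5 CPM in WT and 219.5, 290.9 and 360.5 CPM in Pon2-/- (lowest, median and highest). Its log2 fold change was 0.35 ± 0.16 (SE), with an unadjusted edgeR p of 0.0487, an adjusted p of 1.00 and an exact permutation p of 0.0455 (0.827 adjusted over all tested genes). Cycs, which encodes cytochrome c, held 50.9, 65.7 and 74.6 CPM in WT and 16.1, 48.0 and 61.2 CPM in Pon2-/-. Cycs had a log2 fold change of -0.54 ± 0.32 (SE), with an adjusted edgeR p of 1.00 and an exact permutation p of 0.0152 (0.685 adjusted over all tested genes). A near-identical copy of Cycs, Gm10053 (99.9% over 946 bases), held 41 counts in all. Both genes thus overlapped between the genotypes.

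The 5 other caspases (3 negative log2 fold changes) and the 5 inhibitor of apoptosis genes held no gene with an edgeR p below 0.05. Casp2 had a log2 fold change of -0.56 ± 0.32 and the executioner caspase gene Casp6 of -0.50 ± 0.34 (SE). The inhibitor of apoptosis genes had 5 negative values of 5, within a narrow range of -0.37 (Birc2, SE 0.29) to -0.24 (Birc5, with Birc6 at -0.24 and an SE of 0.36), where 6017 of the 11848 tested genes were negative. All 5 confidence intervals included 0, and for Birc3 the mean log2 CPM difference was positive, at 0.30. Of the 7 death receptor genes, 5 had positive and 2 negative values. Tradd and Ripk1, adaptors of TNF receptor signalling, had log2 fold changes of 0.43 ± 0.37 and 0.74 ± 0.65 (SE).

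Among the 11 transcriptional regulators of the family, Trp53, which encodes p53, had the smallest p. It was at 407.4, 503.1 and 582.1 CPM in WT and 573.5, 609.2 and 659.6 CPM in Pon2-/- (lowest, median and highest), so that the genotypes overlapped only between 573.5 and 582.1 CPM. Its log2 fold change was small, at 0.27 ± 0.105 (SE), with an unadjusted edgeR p of 0.0224 and an adjusted p of 1.00. The exact permutation p was 0.00433 (0.446 adjusted over all tested genes), so neither test passed after adjustment. Ddit3 (Chop), a stress factor that induces Bim, was at 55.0, 75.6 and 89.7 CPM in WT and 7.35, 40.6 and 96.8 CPM in Pon2-/-, with a log2 fold change of -0.74 ± 0.44 (SE), an edgeR p of 0.114 and an exact permutation p of 0.0238 (0.746 adjusted over all tested genes). Of the 10 protein-level regulators, Dynll1, which sequesters Bim, had a log2 fold change of -0.26 ± 0.18 and the survival kinase gene Akt1 of -0.45 ± 0.36 (SE).

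**Figure D5:**
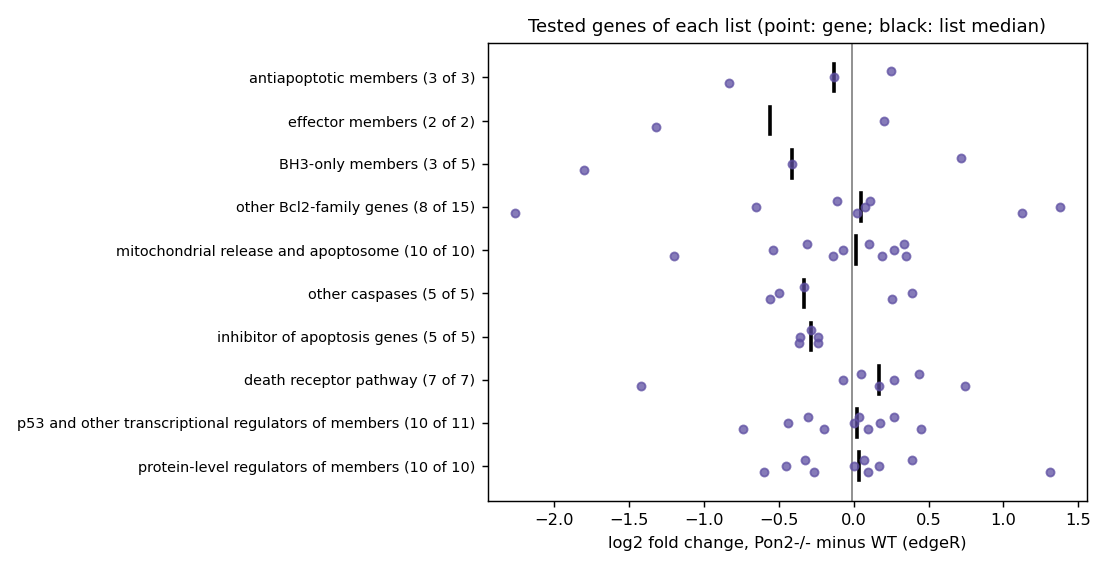
Log2 fold change of Pon2-/- over WT (edgeR) for the tested genes of each list; points are genes, black lines list medians, the gray line the median of all 11848 tested genes (-0.01), and numbers in brackets the genes tested of those listed. List medians run from -0.56 to 0.17, and the 5 inhibitor of apoptosis genes lie between -0.37 and -0.24 by edgeR (Birc3 is positive in mean log2 CPM).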

How the data were processed

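The deposited files hold read counts per gene, which the authors made by trimming reads with Trimmomatic 0.36, mapping them with STAR 2.5.3a to GRCm38.p5 and counting over GENCODE release M12, after FastQC 0.11.5. The counts were neither normalized nor filtered, and 1 column per sample was taken to be unstranded. Gene names, positions and exon lengths came from GENCODE M21 on GRCm38, which named 49326 of 49585 genes. Near-identical copies were sought with minimap2 2.31-r1302 (at least 90% identity over 200 bases).

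Genotypes were compared with edgeR 4.0.16 (R 4.3.3): filterByExpr, TMM, and the quasi-likelihood F-test with genotype as the factor over 6 WT and 6 Pon2-/- samples. CPM values used the TMM-scaled totals, and log2 CPM a prior count of 2. Single genes were also tested by the two-sided exact permutation test. DESeq2 1.42.0 and limma 3.58.1 served as alternatives. Total counts were 12967791 to 24228280 per sample. The fitting code was tested on simulated data.

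The members and lists were chosen with earlier results of these data known. Named were all members and Pon2, in each pathway list every called gene and the 2 genes with the smallest edgeR p, and for each tested member the gene most like it. Bik, Bcl2l10, Hrk and the Bcl2a1 copies were named after their values were seen. Exons were measured as the union of all annotated exons of a gene. Protein sequences were not used here. Cell type markers were summed by list, and 2 further marker genes are not reported here.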

Additional observations from a re-analysis of the deposited data

Results flagged for a closer look

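In 22 groups of 6 samples (10 members and the antiapoptotic share, in each genotype) 4 results had 1 sample that stood far from the other 5 by Dixon's criterion on log2 CPM. Chance flags about 1 in 20 groups, a rate that does not hold where samples are tied at 0. Bak1 in WT replicate 5 was at 0.145 CPM, where the next sample held 1.57 CPM. Bax in Pon2-/- replicate 4 was at 68.0 CPM, where the next sample held 99.1 CPM, and this library also had the lowest Bid level of all 12. The 2 others come from genes counted in a single sample of the genotype: Pmaip1 in WT replicate 1 at 0.212 CPM and Bbc3 in Pon2-/- replicate 2 at 6.38 CPM, with 0 in the remaining samples of that genotype. With 5 samples tied at 0, any count in the remaining sample is flagged, so these 2 flags follow from the ties.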

How the results depend on the processing

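The count of members called was 0 in all 23 alternatives, and the antiapoptotic share differed by -7.79 to -1.30 percentage points over its 14. The count of genes called, 24 in the main test, was 8 with no filter on low counts, 304 with DESeq2, 966 with DESeq2 without its outlier filter and 5 with the replicate block. The causes were not tested. It was 20 to 28 when single samples were left out. Bcl2l1 turned negative with limma voom and quality weights (-0.74), with the replicate block (-0.70) and without Pon2-/- replicate 5 (-0.46), and its mean log2 CPM difference, -0.97 in the main test, was 0.22 without Pon2-/- replicate 3. Mcl1 turned positive without WT replicate 4 (0.13) and without Pon2-/- replicate 2 (0.01), and its mean log2 CPM difference did so without WT replicate 4 (0.11), WT replicate 6 (0.02), Pon2-/- replicate 2 (0.10) and Pon2-/- replicate 5 (0.01). With single samples left out, Bcl2l1 ranged from -0.46 to 0.52 by edgeR and from -1.59 to 0.22 in mean log2 CPM, and Mcl1 from -0.34 to 0.13 and from -0.31 to 0.11. The other 6 tested members kept their sign in every alternative, and the lowest adjusted p of any member under another fit was 0.414 (Bcl2). Replicate numbers gave no pairing: deviations of same-numbered samples correlated at 0.0009 to 0.043, and 1 of 6 WT samples correlated best with its own number. The model with log2 total counts was added after the data were seen. Bbc3, Pmaip1, Bcl2l11 and Bak1 had 0 counts in several samples each. With single samples left out, Bax ranged from 0.11 (without WT replicate 4) to 0.31 (without WT replicate 6).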
